A study of Mus musculus with 12 samples.

Results

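Genes for ubiquitin ligases that have been linked to loss of muscle mass were followed in RNA-seq counts from mouse tibialis anterior (TA) muscle. The 10 genes were taken by name: *Trim63*, *Trim55*, *Trim32*, *Traf6*, *Fbxo32*, *Fbxo30*, *Fbxo31*, *Fbxo40*, *Fbxo21* and *Nedd4*, out of 27179 genes listed. In each of 6 mice the TA of 1 leg received 10 μg of the empty plasmid pcDNA3 (Control muscles) and the TA of the other leg received 10 μg of plasmid with the full-length human long noncoding RNA *FRAIL1* behind the cytomegalovirus promoter (*FRAIL1* muscles). All mice were male wild-type (WT) C57BL/6N, obtained at 6 to 8 weeks of age and used within 2 weeks, and both TAs of each mouse were electroporated and were taken at day 7. The cytomegalovirus promoter is active in many cell types, electroporation reaches only some of the cells of a muscle, and RNA was taken from the whole TA. *FRAIL1* is a human transcript that is not among the counted mouse genes, so its level was not measured here.

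Ubiquitin is passed from an activating enzyme to a conjugating enzyme, and a ligase then hands it to a chosen protein, which the proteasome can degrade. The ligases give the system its selectivity. *Trim63*, which encodes MuRF1, and *Fbxo32*, which encodes atrogin-1 (MAFbx), are the classic ligase genes of atrophying muscle: their mRNAs rise with fasting, denervation, glucocorticoids and inflammation, and FoxO transcription factors drive them. Ligases of the TRIM family and TRAF6 are single proteins with a RING domain, the FBXO proteins are the substrate-binding parts of larger SCF complexes built on SKP1 and the cullin CUL1, and NEDD4 is of the HECT type, which carries ubiquitin itself.

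Total counts were 45018389 to 59309210 in Control and 44848322 to 60527385 in *FRAIL1* muscles. *FRAIL1* muscle 5 stood apart from the other 11 muscles on the first principal component of all tested genes (59.5, next 25.8, 32.4% of the variance), so the results it moved most are also given without the muscles numbered 5.

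All 10 genes were expressed well enough to be tested. Levels are given in CPM, read counts scaled to the effective (TMM) library size. The 2 plasmids were compared by a quasi-likelihood test in edgeR over 15502 genes, called at an adjusted p (Benjamini-Hochberg) under 0.05. The ligase mRNAs were mostly lower in *FRAIL1* muscles, by small amounts: 7 had a negative log2 fold change and 3 a positive one, and their median was -0.22 (range -0.50 to 0.085). The median over all 15502 genes was 0.0096, and 14.2% of them had a log2 fold change below the median of the ligases. Only *Fbxo31* passed the threshold, so 1 of 10 ligases was lower in *FRAIL1* muscles and 0 were higher, where 1.85% of all genes tested were called lower, 4.43% were called higher and 6.28% were called in either direction. At an unadjusted p under 0.05 the count was 3 of 10 (*Fbxo31*, *Trim55* and *Traf6*, all lower), against 27.7% of all genes. The 2 groups of muscles overlapped for all 10 ligases, whereas 4.88% of all genes tested had groups that did not overlap, 1.77% with the *FRAIL1* muscles lower. RNA came from whole muscle, so fewer cells of a type and less RNA per cell cannot be told apart.

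*FRAIL1* muscle 5 was the lowest of the 6 *FRAIL1* muscles for 7 of the 10 ligases, while *FRAIL1* muscle 2 was the highest for 5 of them. Without both muscles numbered 5 the median log2 fold change of the ligases was -0.18 and *Fbxo31* was still the 1 ligase called (adjusted p = 0.0345, edgeR). Muscle fiber markers moved beside the ligases. Their summed level was 158094 to 183744 CPM in Control and 117756 to 167959 CPM in *FRAIL1* muscles, lower in 6 of 6 mice and lowest in *FRAIL1* muscle 5. Their median log2 fold change was -0.26, and -0.18 without both muscles numbered 5. Of the 6 markers, 5 were below 0 and 1 was called (*Ckm*, lower). The part of this in the ligase values was not tested.

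Because both TAs came from each mouse, the fit was repeated with the mouse as a block. *Trim55* then joined *Fbxo31*, so 2 of 10 ligases were called, both lower, where the share of all genes called was 14.1%, with 6.62% lower and 7.48% higher. The *Fbxo32* estimate moved from -0.50 to -0.63 with the block, and the 95% interval for *Trim63*, *Fbxo32* and *Fbxo40* no longer included 0, although their adjusted p-values stayed above the threshold (0.0648, 0.0758 and 0.0527). Other tools differed in how many ligases they called: DESeq2's Wald test called 2 of 10 and 14.3% of all genes, limma voom with quality weights 2 of 10 and 11.3%, and DESeq2 with the block 5 of 10 and 18.5%. The 5 were *Fbxo31*, *Trim55*, *Trim63*, *Fbxo32* and *Fbxo40*, all lower.

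**Figure D1:**
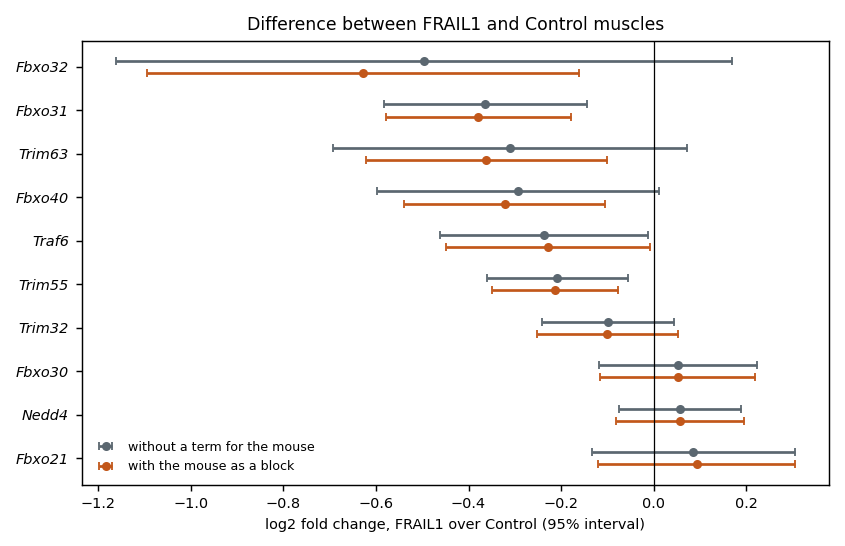
The log2 fold change of *FRAIL1* over Control muscles (horizontal axis) of each of the 10 ligase genes, with its 95% interval, from the fit without a term for the mouse and from the fit with the mouse as a block. The estimates run from -0.50 for *Fbxo32*, which has the widest interval, to 0.085 for *Fbxo21*, and without the block the intervals of *Fbxo31*, *Trim55* and *Traf6* lie below 0.

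In adult TA the 10 ligase mRNAs covered a wide span of levels. To compare genes with one another, CPM were divided by the length of each gene's exons in kilobases. In Control muscles *Trim63* was the most abundant at 103 ± 12.3 CPM per kilobase (SD, n = 6), above 97.9% of 14384 tested genes with an exon length. A second tier followed, with *Fbxo32* at 34.2 ± 7.34, *Fbxo31* at 30.8 ± 2.34 and *Nedd4* at 29.3 ± 1.69 CPM per kilobase, and these 3 neighbours did not differ beyond their spread. *Trim55* (23.1 ± 1.16) and *Fbxo40* (20.8 ± 2.19) overlapped each other and, apart from *Fbxo32*, lay below that tier. The remaining 4 were scarcer: *Trim32* at 4.54 ± 0.256, *Fbxo30* at 3.37 ± 0.319, *Fbxo21* at 2.42 ± 0.388 and *Traf6* at 1.71 ± 0.278 CPM per kilobase, where the ranges of *Fbxo30* and *Fbxo21* overlapped, as did those of *Fbxo21* and *Traf6*. *Traf6* stood above 42.7% of tested genes on this scale. In *FRAIL1* muscles *Trim63* was again highest at 83.0 ± 26.3 CPM per kilobase and *Traf6* lowest at 1.45 ± 0.153, while *Nedd4* (30.4 ± 1.82) came before *Fbxo32* (24.2 ± 12.6).

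**Figure D2:**
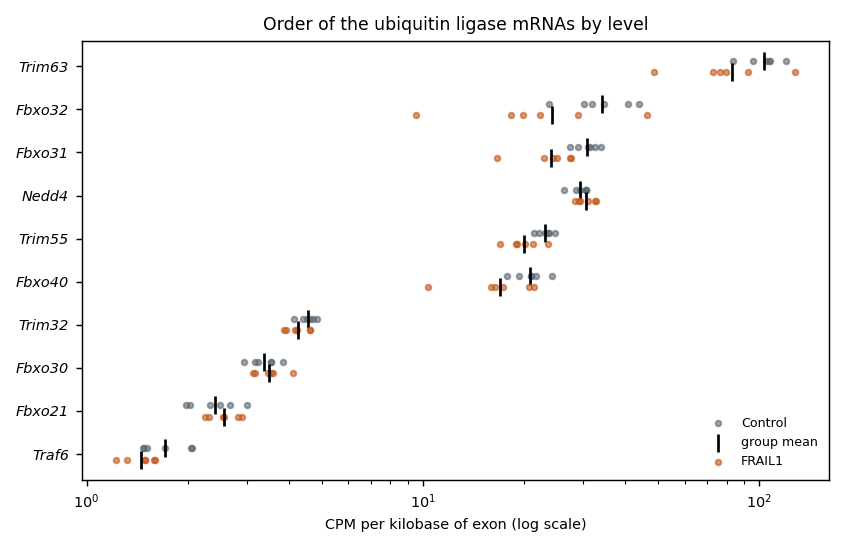
The level of each ligase mRNA in CPM per kilobase of exon (horizontal axis, log scale) in single muscles, with 1 point per muscle and a black tick at each group's mean. *Trim63* lies above the others, 5 genes share a middle band and 4 lie below 5 CPM per kilobase, and the points of *Fbxo32* in *FRAIL1* muscles spread the most on the log scale, from 9.51 to 46.5.

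*Trim63* (NCBI Gene 433766, chr4:134315120-134329629 in mm10, forward strand) encodes a muscle-restricted RING ligase of the sarcomere that marks myosin and other contractile proteins. Its Control muscles ran from 237 to 341 CPM with a median of 301, and its *FRAIL1* muscles from 138 to 364 CPM with a median of 222. In all, 4 *FRAIL1* muscles lay below every Control muscle, but *FRAIL1* muscle 2 was above all of them. The means were 293 ± 35.0 and 236 ± 74.6 CPM (SD, n = 6 each), a log2 fold change of -0.31 (SE 0.177, 95% interval -0.69 to 0.072, edgeR adjusted p = 0.274), and the level was lower in 5 of 6 mice. The edgeR adjusted p without *FRAIL1* muscle 2 was 0.0433 and without *FRAIL1* muscle 5 was 0.469. Of the fits that left out 1 muscle, only that without *FRAIL1* muscle 2 passed the threshold.

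*Fbxo32* (NCBI Gene 67731, chr15:58175879-58214892, reverse strand) encodes the F-box protein atrogin-1, whose SCF complex marks the myogenic factor MyoD and the translation factor eIF3f. It had the most negative estimate of the 10 and the greatest spread. Control muscles ran from 166 to 306 CPM with a median of 232, and *FRAIL1* muscles from 66.4 to 324 CPM with a median of 147. The coefficient of variation was 21.5% in Control and 52.0% in *FRAIL1* muscles. Within mice, log2 *FRAIL1* over Control was -1.05, 0.084, -0.51, -0.92, -1.32 and -0.057 for mice 1 to 6, so mice 1, 4 and 5 had far less in the *FRAIL1* muscle and mice 2 and 6 about as much in both. The fitted log2 fold change was -0.50 (SE 0.306, 95% interval -1.16 to 0.17, edgeR adjusted p = 0.313), and -0.42 without both muscles numbered 5 (0.397). Single muscles moved it further, to -0.79 without *FRAIL1* muscle 2 (0.0628) and to -0.33 without *FRAIL1* muscle 5 (0.512). Of its exon bases, 2.67% are shared with *Gm15943* on the opposite strand, and whether the counting used strand is not given in the sources used here. No other ligase had exons in common with another gene.

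**Figure D3:**
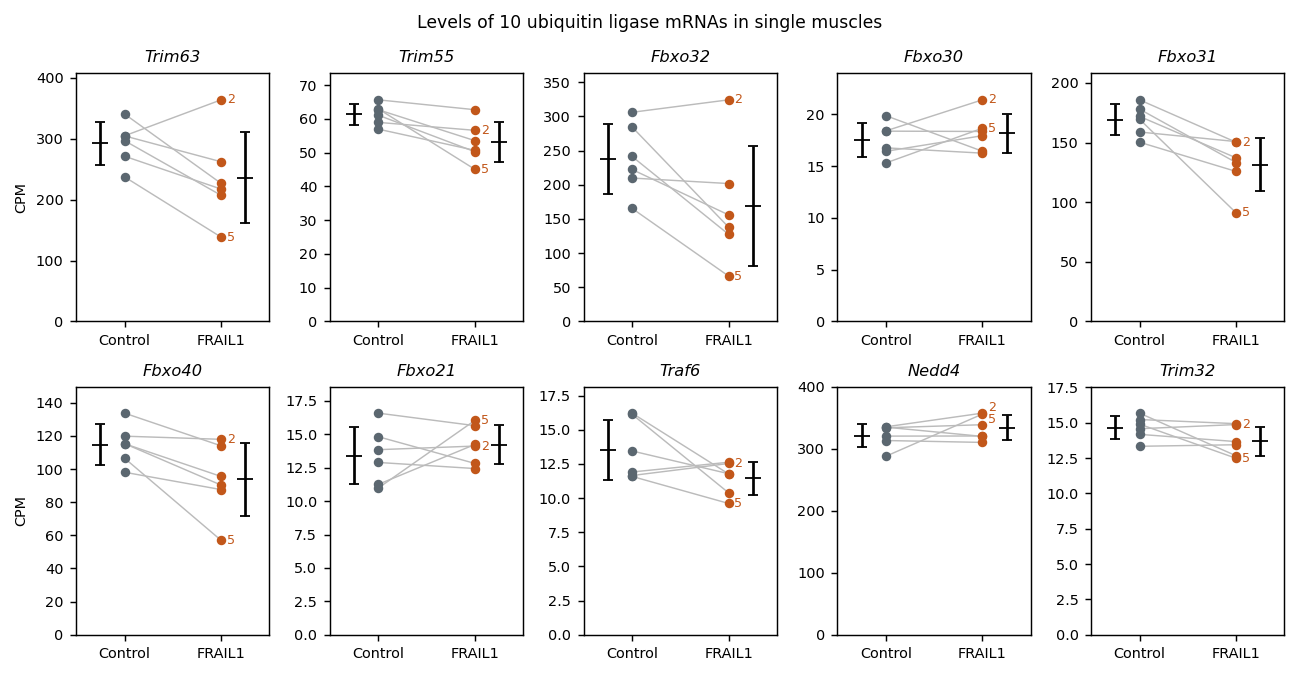
CPM of each ligase mRNA (vertical axes, all from 0) in the 6 Control and the 6 *FRAIL1* muscles, with grey lines joining the 2 muscles of a mouse, bars at the sides for the mean and SD, and *FRAIL1* muscles 2 and 5 marked by number. The *Fbxo31*, *Fbxo40* and *Trim55* lines all slope down, *Trim63* and *Fbxo32* slope down in 5 of 6 mice, and *Fbxo30*, *Fbxo21* and *Nedd4* have no common slope.

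*Fbxo31* (NCBI Gene 76454, chr8:121549443-121578864, reverse strand) encodes an F-box protein known for marking cyclin D1 after DNA damage. Control muscles ran from 150.3 to 186 CPM with a median of 171, and *FRAIL1* muscles from 91.0 to 150.8 CPM with a median of 135. All 6 mice had less *Fbxo31* mRNA in the *FRAIL1* muscle, and 5 *FRAIL1* muscles lay below every Control muscle. The mean fell from 169 ± 12.9 to 131 ± 22.0 CPM (SD, n = 6 each), or to 0.777 of the Control level, with a log2 fold change of -0.36 (SE 0.103, 95% interval -0.58 to -0.14, edgeR adjusted p = 0.0484, 0.0235 with the mouse as a block). The call sat at the edge of the threshold: it was lost in 9 of the 12 fits that left out 1 muscle (any Control muscle or *FRAIL1* muscle 1, 4 or 6, adjusted p up to 0.0996) and without the expression filter (0.0516). It held without *FRAIL1* muscle 5, where the adjusted p was 0.0216. The gene lies within the span of *Gm20388* on the other strand, with no exon in common.

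*Fbxo40* (NCBI Gene 207215, chr16:36963461-36990530, reverse strand) encodes a muscle-restricted F-box protein that marks the insulin receptor substrate IRS1. Control muscles ran from 98.1 to 134 CPM with a median of 115, and *FRAIL1* muscles from 57.0 to 118 CPM with a median of 92.9. It was lower in 6 of 6 mice, but by very different amounts, with log2 differences of -0.023 in mouse 2 and -0.90 in mouse 5. The log2 fold change of -0.29 (SE 0.142, 95% interval -0.60 to 0.013) did not pass the threshold (edgeR adjusted p = 0.197). Without both muscles numbered 5 it was -0.21 in both fits, with an edgeR adjusted p of 0.223 without the block and 0.0153 with it, where *Fbxo40* was the third ligase called beside *Fbxo31* and *Trim55*.

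*Trim55* (NCBI Gene 381485, chr3:19644344-19692584, forward strand) encodes MuRF2, a relative of MuRF1 that also sits at the sarcomere and on microtubules. Its levels varied less between muscles than those of *Trim63*. Control muscles ran from 57.0 to 65.7 CPM with a median of 61.9, and *FRAIL1* muscles from 45.1 to 62.7 CPM with a median of 52.1. As many as 5 *FRAIL1* muscles lay below every Control muscle and 6 of 6 mice were lower. The log2 fold change was -0.21 (SE 0.0715, 95% interval -0.36 to -0.056), and its adjusted p in edgeR was 0.0823 without and 0.0422 with the mouse as a block. Without both muscles numbered 5 the values were -0.16, 0.164 and 0.0420.

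*Traf6* (NCBI Gene 22034, chr2:101678420-101701668, forward strand) encodes a RING ligase that relays inflammatory receptor signals to NF-κB. Its Control muscles ran from 11.6 to 16.2 CPM with a median of 12.7 and its *FRAIL1* muscles from 9.61 to 12.6 CPM with a median of 11.8. Here the Control muscles were the more spread, and only 4 of 6 mice were lower. The log2 fold change was -0.24 (SE 0.105, 95% interval -0.46 to -0.013, edgeR adjusted p = 0.160). *Trim32* (NCBI Gene 69807, chr4:65604986-65616240, forward strand, within the span of *Astn2* on the other strand) encodes a ligase of desmin filaments that is mutated in a limb-girdle muscular dystrophy. It had 14.7 ± 0.827 CPM in Control and 13.7 ± 1.05 CPM in *FRAIL1* muscles (SD, n = 6 each), a log2 fold change of -0.099 (95% interval -0.24 to 0.044, edgeR adjusted p = 0.357).

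The last 3 ligases had estimates just above 0 and no common direction among mice. *Fbxo30* (NCBI Gene 71865, chr10:11281330-11305750, forward strand) encodes MUSA1, an F-box protein of denervated muscle that BMP signalling holds down. Its levels were 17.5 ± 1.66 CPM in Control and 18.2 ± 1.87 CPM in *FRAIL1* muscles (SD, n = 6 each), a log2 fold change of 0.052 (95% interval -0.12 to 0.22, edgeR adjusted p = 0.709). *Fbxo21* (NCBI Gene 231670, chr5:117976770-118010198, forward strand), the FoxO target also called SMART, had 13.4 ± 2.15 and 14.2 ± 1.45 CPM, a log2 fold change of 0.085 (95% interval -0.13 to 0.30, edgeR adjusted p = 0.624). Each was higher in 3 mice and lower in 3. *Nedd4* (NCBI Gene 17999, chr9:72662331-72749851, forward strand), whose protein marks membrane receptors and channels, ran from 288 to 336 CPM with a median of 327 in Control and from 310.5 to 358 CPM with a median of 330.0 in *FRAIL1* muscles. The fitted log2 fold change was 0.057 (95% interval -0.074 to 0.19, edgeR adjusted p = 0.581), and it was higher in 4 of 6 mice. Without both muscles numbered 5 the estimates were 0.0063 for *Fbxo30*, -0.0052 for *Fbxo21* and 0.0053 for *Nedd4*.

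Mice differed in how far the ligases moved. The median of log2 *FRAIL1* over Control across the 10 genes was -0.29, 0.056, -0.070, -0.26, -0.38 and -0.12 for mice 1 to 6, and 8, 3, 9, 9, 7 and 8 of the 10 genes were lower. Mouse 2 was the only one with more ligases higher than lower. Several ligases varied together from muscle to muscle. As deviations from the group means over 12 muscles, log2 CPM of *Trim63* correlated with *Fbxo32* at r = 0.93 and with *Fbxo40* at 0.88, *Fbxo31* with *Fbxo32* at 0.80 and with *Fbxo40* at 0.79, *Trim55* with *Trim32* at 0.83 and *Fbxo30* with *Nedd4* at 0.83, whereas *Trim55* with *Fbxo21* stood at -0.55. These are descriptions over muscles that share mice and the common depth of each library, and no p was taken.

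The classic pair was examined within each group. Among the 6 Control muscles *Fbxo32* and *Trim63* correlated with Pearson's r = 0.877 (exact permutation p = 0.0292, adjusted 0.0444 over 4 tests) and Spearman's rho = 0.886 (exact permutation p = 0.0333, adjusted 0.0444), and r was 0.917 without the 2 muscles farthest from the median. Among the 6 *FRAIL1* muscles r was 0.934 (exact permutation p = 0.0306, adjusted 0.0444) and rho was 0.829 (exact permutation p = 0.0583, adjusted 0.0583). There r was 0.125 among the 4 muscles left without the 2 farthest from the median of *Fbxo32*. Leaving out those 2 also narrows the range, and 4 muscles are too few to tell whether the relation in *FRAIL1* muscles holds without them. The tests were two-sided, and the smallest p that the test of r can give is 0.00139. That of rho is larger, since the reversed order gives the same absolute rho.

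**Figure D4:**
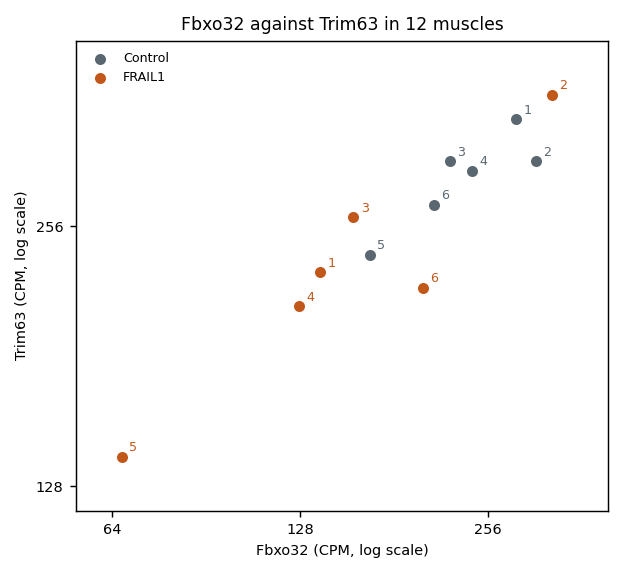
CPM of *Trim63* (vertical axis, log scale) against CPM of *Fbxo32* (horizontal axis, log scale) in 12 muscles, with the mouse number beside each point. The *FRAIL1* muscles of mice 5 and 2 are at the lower left (66.4 CPM of *Fbxo32* and 138 CPM of *Trim63*) and the upper right (324 and 364 CPM), outside the range of the Control muscles.

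The 5 tested genes most like *Trim63* by the same deviations, among 12857 genes with a mean of at least 1 CPM and over 12 muscles, were *Itsn1* (r = 0.97), *Golph3* (0.95), *Hif1an* (0.95), *Setd7* (0.95) and *Dnttip2* (0.94). Those most like *Fbxo32* were *R3hdm1* (0.95), *Vldlr* (0.94), *Ubl3* (0.93), *Rab12* (0.93) and again *Dnttip2* (0.93). Of these 9 genes only *Setd7*, a lysine methyltransferase gene, passed the threshold, with a log2 fold change of -0.52 (edgeR adjusted p = 0.0267). With the mouse as a block 7 of the 9 passed, all but *Itsn1* and *Dnttip2* (edgeR adjusted p between 0.0109 and 0.0359 for the 7). Of all genes tested, 6.28% passed without and 14.1% with the block. The 9 had the highest r of 12857 genes searched in these same muscles, so their r values and these counts describe the selection only.

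The RefSeq promoter windows (GRCm38.p6, 250 bases up to the base before the start, 8 of 10 ligases matched) of *Trim63*, *Fbxo31* and *Fbxo40* are shown, for their sequence content only, since these 3 varied with one another and with *Fbxo32*. For *Fbxo40*, which has 2 windows in the table, the one nearest the annotated start of the gene is shown. The start is that of the promoter annotation. For *Fbxo31* and *Fbxo40* it lies within the gene span given above, so the last bases of these 2 windows lie inside that span. They were searched on both strands for the FoxO element GTAAACA, the glucocorticoid receptor half-site AGAACA and the E-box CANNTG, to which myogenic factors such as myogenin bind, and matches are in capitals. The windows lie at chr4:134314870-134315119 on the forward strand, chr8:121578807-121579056 on the reverse strand and chr16:36990468-36990717 on the reverse strand, and each is written 5′ to 3′ in the direction of the gene.
Trim63: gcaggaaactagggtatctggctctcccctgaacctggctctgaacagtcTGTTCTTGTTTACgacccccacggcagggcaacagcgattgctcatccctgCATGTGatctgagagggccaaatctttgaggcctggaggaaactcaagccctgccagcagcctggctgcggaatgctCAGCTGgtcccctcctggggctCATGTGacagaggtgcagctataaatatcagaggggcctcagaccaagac
Fbxo31: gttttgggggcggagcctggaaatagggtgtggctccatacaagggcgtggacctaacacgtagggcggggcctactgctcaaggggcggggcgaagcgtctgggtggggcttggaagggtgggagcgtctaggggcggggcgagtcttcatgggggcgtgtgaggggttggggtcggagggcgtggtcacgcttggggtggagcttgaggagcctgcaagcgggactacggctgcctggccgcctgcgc
Fbxo40: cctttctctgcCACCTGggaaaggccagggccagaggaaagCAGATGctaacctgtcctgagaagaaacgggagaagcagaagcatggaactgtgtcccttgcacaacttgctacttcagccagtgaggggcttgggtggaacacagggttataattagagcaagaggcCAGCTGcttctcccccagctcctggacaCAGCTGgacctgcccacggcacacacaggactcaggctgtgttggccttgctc

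Positions count back from -1 at the last base of a window. The *Trim63* window holds a half-site that begins at -200 and, directly after it, a FoxO element at -194, both on the opposite strand. Its E-boxes are at -149, -72 and -50. The *Fbxo40* window shown has E-boxes at -239, -209, -81 and -53 and neither of the other motifs, whereas its second window, at chr16:36979137-36979386, holds a half-site at -176 and E-boxes at -160 and -89, and the *Fbxo31* window has none of the 3. Among 32851 promoter windows of the same length, 3.17% hold the FoxO element, 16.1% the half-site and 66.2% an E-box. A match describes the letters only. *Trim55* and *Fbxo32* are not matched.

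The rest of the ubiquitin ligase pathway was read from 132 other genes in 7 lists by role, all of them tested. Of these, 8 (6.06%) passed the threshold, 3 higher and 5 lower, a share near the 6.28% of all genes tested, and the median log2 fold change was -0.068. With the mouse as a block 24 (18.2%) passed, 6 higher and 18 lower, against 14.1% of all genes. Genes named below for a call with the block alone were chosen after their values were seen. Among the 6 ubiquitin and activating enzyme genes none was called (edgeR, 1 at an unadjusted p under 0.05, median -0.054). *Ubb*, which encodes a chain of ubiquitin repeats, had 102 ± 7.20 and 96.2 ± 10.5 CPM (SD, n = 6 each, edgeR adjusted p = 0.533), and since reads had to map uniquely, its repeat reads may be undercounted. Of the 29 ubiquitin-conjugating enzymes (median -0.031), *Ube2q2* fell from 29.5 ± 1.33 to 24.1 ± 2.92 CPM (-0.29 on the log2 scale, edgeR adjusted p = 0.0347), and no other was called. With the block *Ube2b* and *Ube2r2* were called as well, both lower (edgeR adjusted p = 0.0230 and 0.0267). The 11 genes of the SCF core and of neddylation, the modification that activates cullins, held no call (edgeR, 4 at an unadjusted p under 0.05, median -0.033). The partners of the F-box proteins had log2 fold changes of -0.12 for *Skp1*, -0.057 for *Cul1* and -0.15 for *Rbx1* (edgeR adjusted p = 0.297, 0.583 and 0.134).

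Of 31 other ubiquitin ligase genes of muscle (median -0.096), 2 were called, both lower. *Ubr2*, a ligase of the N-degron pathway, fell from 96.8 ± 4.56 to 76.3 ± 11.1 CPM with no overlap of the groups (-0.34 on the log2 scale, edgeR adjusted p = 0.0335). *Asb5*, a substrate receptor of cullin ligases, fell from 169 ± 17.1 to 135 ± 14.1 CPM (-0.32, edgeR adjusted p = 0.0339). With the block *Wwp1*, *Nedd4l* and *Asb15* were among those also called lower, and *Klhl40* was called higher (edgeR adjusted p between 0.0137 and 0.0344). For *Klhl40*, 21.6% of exon bases are shared with *Gm47108* on the opposite strand. *Trim54*, which encodes MuRF3, the third MuRF protein, had 515 ± 27.9 CPM in Control and 408 ± 73.8 CPM in *FRAIL1* muscles, and the groups did not overlap, from 486 CPM up in Control and up to 465 CPM in *FRAIL1* muscles. Its log2 fold change of -0.34 did not pass (edgeR adjusted p = 0.0711), and 26.6% of its exon bases are shared with *Gm15469* on the opposite strand.

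The largest rise among the pathway genes was that of *Myog*, 1 of the transcription factors that act on ligase genes. Of these 23 factors (median -0.11, 7 higher and 16 lower), *Myog* and *Nfkb2* were called higher and *Foxo4* was called lower. *Myog*, which encodes myogenin, known to activate *Trim63* and *Fbxo32* after denervation, ran from 8.71 to 13.5 CPM with a median of 12.7 in Control and from 20.3 to 64.1 CPM with a median of 27.5 in *FRAIL1* muscles. It rose in 6 of 6 mice without overlap, a log2 fold change of 1.46 (SE 0.261, 95% interval 0.89 to 2.03, edgeR adjusted p = 0.0124), and passed in all 23 alternative fits. *Nfkb2*, an NF-κB subunit, rose from 24.3 ± 2.54 to 30.8 ± 3.19 CPM (0.34, edgeR adjusted p = 0.0275), and 18.1% of its exon bases are shared with genes on the opposite strand. *Foxo4* fell from 211 ± 6.49 to 151 ± 31.8 CPM in 6 of 6 mice with no overlap (-0.48, edgeR adjusted p = 0.0348). The other FoxO factors with a central place in atrophy were not called: *Foxo1* had 19.7 ± 1.68 and 19.5 ± 3.04 CPM (-0.016, 95% interval -0.22 to 0.18, edgeR adjusted p = 0.930) and *Foxo3* had 3.50 ± 1.03 and 3.17 ± 0.398 CPM (-0.14, 95% interval -0.53 to 0.24, edgeR adjusted p = 0.643). *Klf15*, a glucocorticoid-induced partner of FoxO, had 18.9 ± 1.70 and 16.0 ± 3.74 CPM (-0.24, edgeR adjusted p = 0.295). With the block *Smad3* and *Smad4*, which carry TGF-β family signals, were also called, both lower (edgeR adjusted p = 0.0399 and 0.0217).

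Among 16 other FoxO targets and atrophy genes (median -0.10), *Ctsl*, which encodes the lysosomal protease cathepsin L, rose from 115 ± 4.82 to 153 ± 25.9 CPM without overlap (0.40, edgeR adjusted p = 0.0220), and 26.8% of its exon bases are shared with other genes. It was the only gene of that list called and passed in all 23 alternative fits. With the block *Map1lc3b*, *Pdk4*, *Txnip* and *Ulk1* were called too, all lower (edgeR adjusted p between 0.0199 and 0.0375). For *Txnip*, 19.4% of exon bases are shared with *Gm15441* on the opposite strand. Among 16 genes for known substrates of these ligases (median -0.086), *Ckm*, the muscle creatine kinase that MuRF1 binds, fell from 12444 ± 964 to 9556 ± 1615 CPM (-0.38, edgeR adjusted p = 0.0482), and 15.5% of its exon bases are shared with *A930016O22Rik* on the opposite strand. With the block *Irs1* was called lower and *Myod1* and *Fgfr1* higher (edgeR adjusted p between 0.0107 and 0.0276). For *Irs1*, 30.9% of exon bases are shared with *Gm9747* on the opposite strand. Without both muscles numbered 5 the list medians moved by more than 1.5 times in 4 of the 7 lists, to -0.0014 for ubiquitin and activating enzymes, -0.066 for conjugating enzymes, -0.073 for transcription factors and -0.034 for other FoxO targets. The calls of *Ube2q2*, *Ubr2*, *Asb5*, *Foxo4* and *Ckm* were each lost in 8 or more of the 12 fits that left out 1 muscle, with adjusted p-values up to 0.0720, 0.0757, 0.0770, 0.0734 and 0.0912, and that of *Nfkb2* in 4 of them, up to 0.0637.

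**Figure D5:**
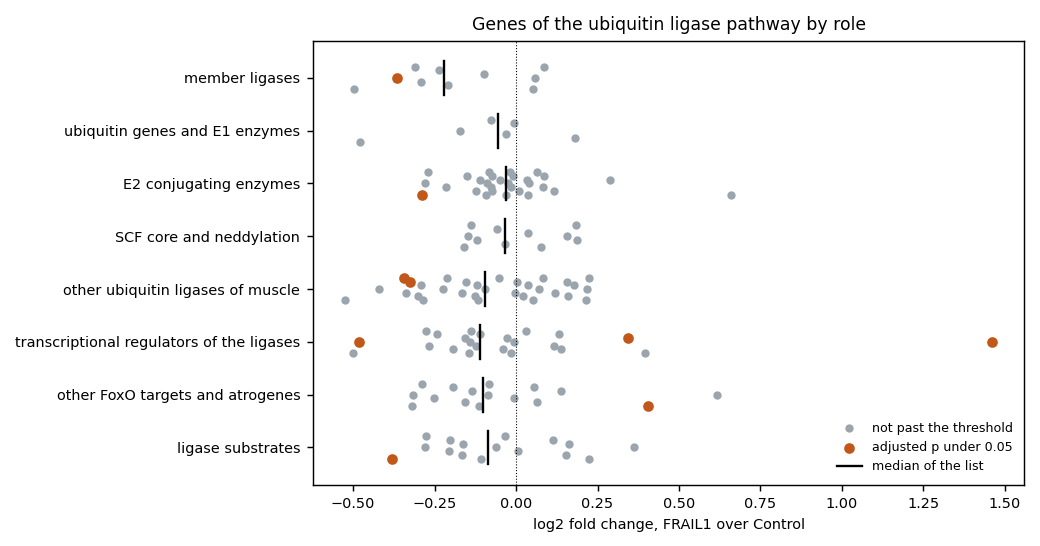
The log2 fold change of *FRAIL1* over Control muscles (horizontal axis) for the 10 ligases and for the 132 other pathway genes in 7 lists by role, with 1 point per gene, genes past the threshold in colour and a black tick at each list's median. The medians lie between -0.22 and -0.031, and *Myog* at 1.46 stands to the right of the other genes.

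Markers of other cells and states differed between the groups as well. For comparison, 6.28% of all genes tested were called and 27.7% had an unadjusted p under 0.05 (edgeR). With the mouse as a block 14.1% were called. All 3 regenerating fiber markers (*Myh3*, *Myh8* and *Myog*) and 5 of 6 denervation markers were called higher, with medians of 1.84 and 1.41. Their sums ran from 135 to 182 CPM in Control and from 282 to 1481 CPM in *FRAIL1* muscles for regenerating fibers, and from 56.5 to 82.6 and from 134 to 287 CPM for denervation, with *FRAIL1* muscle 5 highest in both. Macrophage markers were higher in 6 of 6 genes (0 called, 4 at an unadjusted p under 0.05 in edgeR, median 0.63, 155 to 247 CPM against 192 to 561 CPM) and fibro-adipogenic markers in 5 of 5 (0 called, 3 unadjusted, median 0.44, 485 to 894 CPM against 889.5 to 2366 CPM, highest in *FRAIL1* muscle 5, median 0.28 without both muscles numbered 5). Both satellite cell markers had higher estimates (0 called, 2 unadjusted, median 0.64, 3.07 to 4.87 CPM against 5.32 to 9.55 CPM). None of the 4 endothelial (2 unadjusted, median -0.18, 353 to 425 CPM against 290.4 to 375 CPM), 4 Schwann cell (1 unadjusted, median -0.32, 58.5 to 111 CPM against 43.3 to 76.4 CPM) and 2 smooth muscle markers (1 unadjusted, median -0.034, 112 to 162 CPM against 124 to 147 CPM) was called. The 4 lymphocyte markers summed to at most 4.71 CPM in a muscle, and *Ms4a1* was at 0 in at least 1 muscle. Of these 4, 3 were tested, with 0 called (0 unadjusted). No other defining marker was at 0. With the mouse as a block, 2 of 2 satellite cell markers (*Pax7* and *Myf5*) and 3 of 6 macrophage markers (*Adgre1*, *Csf1r* and *Lyz2*) were called higher, 1 of 4 endothelial markers (*Kdr*) was called lower, and 4 of 6 denervation markers were called. For *Csf1r*, 15.1% of exon bases are shared with *Hmgxb3* on the opposite strand. For *Itgam*, another of the macrophage markers, 68.7% are shared with *Gm49368* on the same strand. Without both muscles numbered 5 the median was 1.35 for regenerating fiber, 1.17 for denervation and 0.46 for satellite cell markers. It was -0.23 for Schwann cell and -0.014 for smooth muscle markers. The part of these cell types in the ligase values was not tested.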

How the data were processed

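RNA-seq counts of 12 TA muscles (6 Control, 6 *FRAIL1*; 10 μg of plasmid, day 7) were used. The authors trimmed paired-end reads of polyA RNA with Trimmomatic, mapped them to mm10 with STAR 2.7.8a, counted reads that mapped uniquely to a gene with featureCounts 2.0.1 and deposited raw counts, without normalization. The strand setting is not given in the sources used here. Of 27179 NCBI Gene IDs, 25275 matched a symbol (the others held 0.280% of counts). Copied libraries were looked for and not found (chi-square per degree of freedom of 14.5 or more within groups).

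Genes were filtered with filterByExpr, scaled with TMM (factors 0.935 to 1.19) and tested with edgeR 4.0.16 (robust quasi-likelihood fit) in R 4.3.3, the threshold being a Benjamini-Hochberg adjusted p of 0.05. Groups came from GEO's labels, and the spread between 6 muscles is the error given. Intervals are 95%. DESeq2 1.42.0 and limma 3.58.1 served as alternatives, together with other scalings and filters, each muscle left out in turn and the mouse as a block, and the fit was tested on simulated data. Member transcripts were compared by BLAST 2.17.0 with all others at 98% identity over 100 bases, and 1 match was found, the *Fbxo32* overlap.

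Muscles of the same number were taken to be those of 1 mouse from the design, in which both TAs of each mouse were used. Deviations from the group means over 15502 genes correlated at 0.254, 0.162, 0.282, 0.263, 0.0547 and 0.185 for numbers 1 to 6 (mean 0.200), against -0.0400 between other numbers.

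The members and lists were chosen with earlier results of these data known. Named were all members, up to 4 genes past the threshold per pathway list, fixed genes (*Trim54*, *Foxo1*, *Foxo3*, *Klf15*, *Myog*, *Skp1*, *Cul1*, *Rbx1*, *Ubb* and 1 that is not reported here) and the 5 genes most correlated with *Trim63* and with *Fbxo32*.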

Additional observations from a re-analysis of the deposited data

Results flagged for a closer look

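In 54 sets of 6 muscles (the 10 ligases and the other named pathway genes, each group on its own) a test for a single extreme value set 3 apart, where chance alone gives about 1 in 20. *Myog* in *FRAIL1* muscle 5 was at 64.1 CPM, and the next highest *FRAIL1* muscle was at 31.96 CPM. *Trim54* in *FRAIL1* muscle 5 was at 267 CPM, and the next lowest was at 394 CPM. *Ctsl* in Control muscle 1 was at 125 CPM, and the next highest Control muscle was at 116 CPM. No value of the 10 ligases was set apart in this way.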

How the results depend on the processing

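The median log2 fold change of the 10 ligases stayed between -0.25 and -0.18 in every alternative, and no alternative called a ligase higher. With the mouse as a replicate block, edgeR called 2186 genes in place of 974, 2 ligases (*Fbxo31* and *Trim55*) in place of 1, and 24 pathway genes in place of 8, and it changed the call of no other ligase. limma voom called 1756 genes, 2 ligases and 19 pathway genes, DESeq2 2211, 2 and 23, DESeq2 with the block 2875, 5 and 34, and the block without both muscles numbered 5 gave 2305, 3 and 29. Without the expression filter 0 ligases were called (edgeR, *Fbxo31* adjusted p = 0.0516). When 1 muscle was left out, the number of genes called ran from 364 (without *FRAIL1* muscle 1) to 2110 (without *FRAIL1* muscle 3), that of ligases from 0 to 2, that of pathway genes from 2 to 19, and the ligase median from -0.25 to -0.18. Only leaving out *FRAIL1* muscle 5 (969 genes called) kept the number of genes called within 1.5 times. The direction turned for 2 ligases: *Fbxo30* to -0.0031 without *FRAIL1* muscle 2 (up to 0.091 when other single muscles were left out) and *Fbxo21* to -0.0052 without both muscles numbered 5. The cause was not tested. Other scalings changed no ligase call. As to depth, every ligase had 9.61 CPM or more in each muscle.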
